A study of Homo sapiens with 4 samples.

Results

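Cyclin dependent kinase (CDK) inhibitors were examined in 2 human prostate cancer cell lines exposed to atorvastatin (ATO), an inhibitor of the mevalonate pathway. All gene probes of the microarray whose gene name was CDKN1A, CDKN1B, CDKN1C, CDKN2A, CDKN2B, CDKN2C, CDKN2D or CDKN3 were taken, which gave 8 of 27274 gene names and 11 of 34127 probes. LNCaP is an androgen-dependent line and PC3 an androgen-independent one. Each line was cultured in RPMI medium with fetal bovine serum and was either untreated or exposed to 10 µM ATO for 24 h. The labels name no vehicle for the untreated cells. Each of the 4 combinations of line and exposure was measured on 1 array, so a difference within a line has no replicate check and no p-value. All 4 arrays lay on 1 slide. The arrays measured RNA from whole cultures, in which a change in the mix of cells and a change in RNA per cell cannot be told apart.

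CDK inhibitors hold back the kinases that drive the cell cycle. The Cip/Kip proteins p21 (CDKN1A), p27 (CDKN1B) and p57 (CDKN1C) bind cyclin-CDK complexes and chiefly restrain CDK2. The INK4 proteins p16 (CDKN2A), p15 (CDKN2B), p18 (CDKN2C) and p19 (CDKN2D) bind CDK4 and CDK6 and keep them from pairing with D-type cyclins. CDKN3 belongs to neither family: its protein is a phosphatase that removes an activating phosphate from CDK2, and its transcript is known to be abundant in dividing cells.

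Levels below are processed intensities in scanner units, and each ratio is a log2 difference between arrays after each array was scaled to its own 75th percentile. The 75th percentile lay between 497 and 590.3 units, and from 48.5% to 52.9% of gene spots were well above background. All 9 marker genes of the lines were on the side of the labelled line, with KLK3 at least 1499-fold higher in untreated LNCaP and CAV1 at least 382-fold higher in untreated PC3. A gene with several probes is represented by its brightest probe. The error given for a probe printed once is the scanner software's own estimate, and that of the probe printed 10 times is the SD over its spots. Both describe the spot and not the culture.

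In PC3, 4 of the 8 inhibitors were at least 1.5-fold higher after ATO and 0 were at least 1.5-fold lower. They were CDKN2B (5.25-fold), CDKN1A (2.49-fold), CDKN1C (2.23-fold) and CDKN2D (1.51-fold). Over all 13815 genes measured in PC3, 8.2% were that much higher and 10.3% that much lower, 18.5% in all. In LNCaP, 0 of the 8 inhibitors reached 1.5-fold in either direction, as against 4.75% of 13739 genes (2.77% higher and 1.99% lower). CDKN2B could not pass there, since its LNCaP ATO spot was not well above background. It entered the LNCaP count and median as a bound of 0. The median log2 ratio of the 8 was 0.47 in PC3 and −0.03 in LNCaP, and that of all genes was −0.01 and 0.00. The PC3 count includes both families, with CDKN1A and CDKN1C from Cip/Kip and CDKN2B and CDKN2D from INK4. On the 50th percentile the PC3 count was again 4 and 0, and 15.6% of all genes were higher and 6.59% lower. The LNCaP count depended on the scale. On the median of the spike-in control probes the median of genes above background on both LNCaP arrays moved from 0.01 to 0.62, and CDKN1A, CDKN1C and CDKN2A then passed 1.5-fold, at log2 ratios of 0.64, 0.97 and 0.68, as did 53.2% of all genes.

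**Figure D1:**
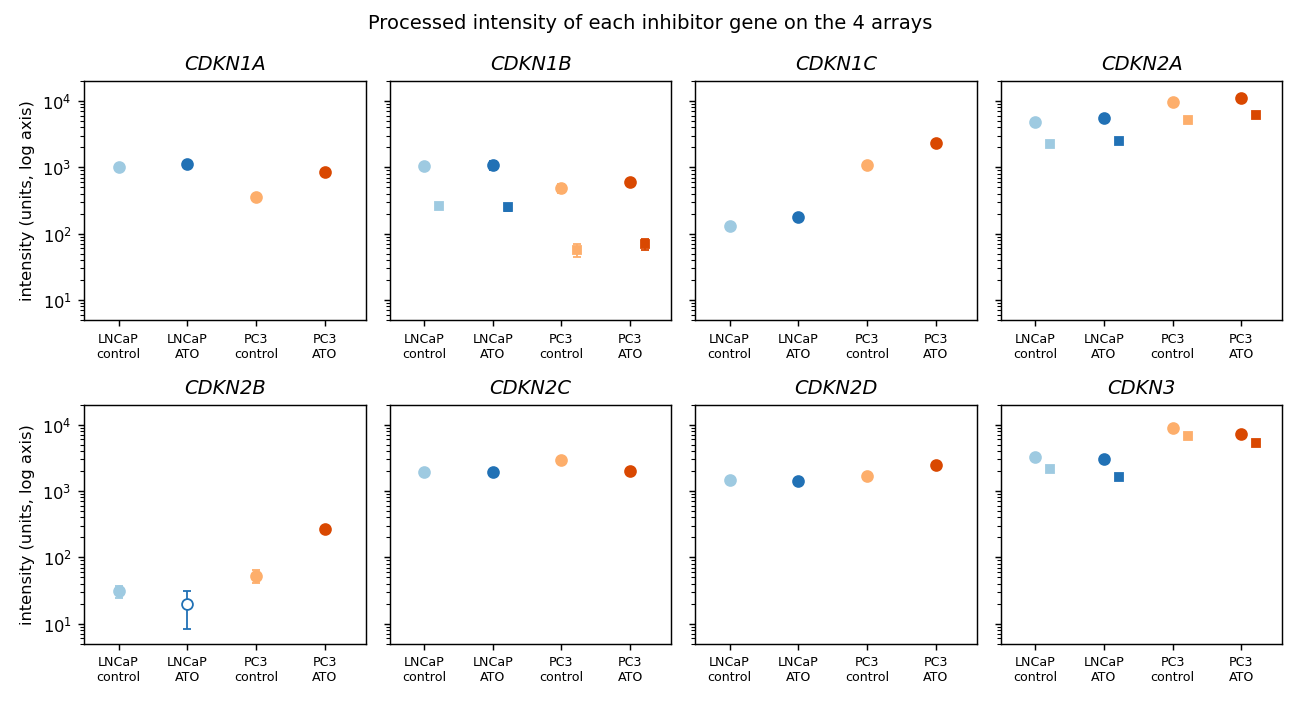
Processed intensity (units, log axis) of each inhibitor gene on the 4 arrays. Circles are the brightest probe of a gene and squares a second probe, an open symbol is not well above background, and bars are the scanner's error or, for the brighter CDKN1B probe, the SD over spots. CDKN2B went from 53.1 to 270 units in PC3, CDKN1A was lowest in untreated PC3, and CDKN1C was far higher on both PC3 arrays than on both LNCaP arrays.

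The parts of the mRNAs that were measured are given for 3 of the 4 inhibitors that passed 1.5-fold in PC3, as the first 30 of the 60 bases of each probe, 5′ to 3′ and all in lower case since no base is singled out. The coordinates are those of the array files (hg18), whose gene annotation was not used here.
CDKN1A, plus strand, chr6:36760156-36760215: tctgctgcaggggacagcagaggaagacca
CDKN1C, minus strand, chr11:2861479-2861538: gtattctgcacgagaaggtacactggtccc
CDKN2D, minus strand, chr19:10538226-10538285: gagttattcatattctgttggaagcttgtt
The CDKN2B probe is not shown here. The longest run of bases that any of the other 10 probes shared with a probe of another inhibitor, on either strand, was 8 bases.

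CDKN1A encodes p21, which binds CDK2 complexes and the replication clamp. Its intensity was 1019 ± 102 in LNCaP without and 1117 ± 112 with ATO, and 354.4 ± 37.0 in PC3 without and 853 ± 85.9 with ATO. Untreated PC3 therefore stood alone at the low end, and the other 3 arrays lay within 853 to 1117 units. The log2 ratio was 1.31 in PC3, which ranked 136 from the top of 13815 genes. In LNCaP it was 0.03, within the scanner error. Untreated PC3 was 3.40-fold below untreated LNCaP, and between the ATO arrays of the lines PC3 was 1.40-fold lower.

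CDKN1C encodes p57, an imprinted inhibitor best known from development. Its intensity was 130 ± 14.7 in untreated and 179 ± 21.8 in exposed LNCaP cells, and 1073 ± 108 in untreated and 2311 ± 231 in exposed PC3 cells. All 4 levels were above background, both PC3 arrays were above both LNCaP arrays, and the ATO array was the higher in each line. The log2 ratio was 1.15 in PC3, ranking 212 of 13815 from the top, and 0.37 in LNCaP, ranking 782 of 13739. The LNCaP ATO spot lay in a bright local background. With such spots left out the gene had no LNCaP value, so the part of that background was not determined. Between the untreated lines the gene was 6.99-fold higher in PC3, and between the ATO arrays 12.1-fold.

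CDKN1B encodes p27, an inhibitor that is controlled largely through its degradation. Its brighter probe (chr12:12766207-12766266) was printed 10 times on each array. Intensity was 1052 ± 93.2 (SD, 10 spots) in LNCaP without and 1096 ± 171 (9 spots) with ATO, and 490 ± 76.2 (10 spots) in PC3 without and 599 ± 73.8 (10 spots) with ATO. Spots are copies on the same array and not replicates of the culture. The spots of the LNCaP arrays overlapped, at 916 to 1200 units in control and 820 to 1367 in ATO. Those of the PC3 arrays overlapped too, at 371 to 604 and 501 to 696 units, whereas no spot of either PC3 array reached the lowest spot of either LNCaP array. Log2 ratios were −0.05 for LNCaP and 0.35 for PC3, where 4 of the 10 ATO spots lay in a bright local background.

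**Figure D2:**
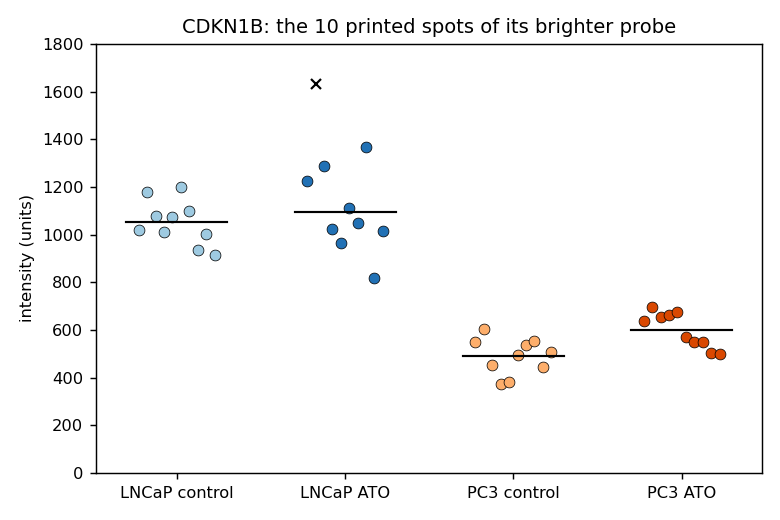
Intensity (units, linear axis from 0) of the 10 printed spots of the brighter CDKN1B probe on each array. Points are spots, lines are means, and the cross is a spot left out as an outlier. Spots of control and ATO overlap within each line, and all PC3 spots lie below all LNCaP spots.

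The second CDKN1B probe (chr12:12762386-12762445) was dimmer but followed the same pattern across arrays. It read 263 ± 26.9 and 250 ± 27.5 units in LNCaP control and ATO, and 57.1 ± 12.7 and 70.5 ± 13.5 in PC3 control and ATO. Its log2 ratios were −0.17 in LNCaP and 0.35 in PC3. The untreated lines differed more by this probe, at 5.45-fold lower in PC3, than by the brighter one, at 2.56-fold lower. Its PC3 control value lay near the lowest intensity called well above background on that array, 52.1 units, so the 5.45-fold is imprecise. The PC3 control and ATO readings of this probe overlap within their scanner errors.

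CDKN2B encodes p15, known as an inhibitor induced by TGF beta. Its intensity was 30.9 ± 6.77 in untreated and 20.0 ± 11.5 in exposed LNCaP cells, and 53.1 ± 11.8 in untreated and 270 ± 29.5 in exposed PC3 cells. Only the PC3 ATO array stood clear, since the other 3 were near background. The lowest intensity called well above background on the PC3 control array was 52.1 units, just under the CDKN2B spot there. The LNCaP ATO spot was not well above background, so no fold is given in LNCaP. In PC3 the log2 ratio of 2.39 ranked 6 from the top of 13815 genes. It was 1.32 after normexp background correction, which adds an offset of 50 units. The untreated lines differed by 1.45-fold, under the 2-fold threshold, and between the ATO arrays PC3 was at least 4.61-fold higher.

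CDKN2A, the neighbour of CDKN2B on chromosome 9, encodes p16 and, through another first exon, ARF. Its brighter probe (chr9:21958039-21958098) read 4842 ± 484 in LNCaP without and 5449 ± 545 with ATO, and 9579 ± 958 in PC3 without and 11236 ± 1124 with ATO. The second probe (chr9:21960901-21960960) read 2231 ± 223, 2534 ± 254, 5119 ± 512 and 6083 ± 608 units in the same order. Both probes ranked the arrays alike, and which of the transcripts each one reads was not determined. The log2 ratios of the brighter and the second probe were 0.07 and 0.08 in LNCaP and 0.28 and 0.30 in PC3. Untreated PC3 was 1.67-fold and 1.94-fold above untreated LNCaP, short of the 2-fold threshold by both probes.

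CDKN2C, the gene of p18, was the INK4 member with the lowest ratio in PC3 (probe chr1:51212551-51212610). Its intensity was 1932 ± 193 in untreated and 1912 ± 192 in exposed LNCaP cells, and 2900 ± 290 in untreated and 2026 ± 203 in exposed PC3 cells. Untreated PC3 was the highest, and the other 3 arrays differed by less than the scanner error. The log2 ratio was −0.47 in PC3, 1.38-fold lower and short of the threshold, and −0.12 in LNCaP. After normexp it was −0.65 in PC3, past 1.5-fold, which makes the PC3 count 4 higher and 1 lower.

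CDKN2D, the gene of p19, passed the threshold in PC3 by a narrow margin. Its intensity was 1485 ± 149 in LNCaP without and 1419 ± 142 with ATO, and 1682 ± 169 in PC3 without and 2457 ± 246 with ATO. The PC3 ATO array was the highest, and the other 3 lay close together. The log2 ratio was 0.59 in PC3, ranking 1089 of 13815, and −0.17 in LNCaP. On the spike-in scale the PC3 ratio was 0.53, under 1.5-fold. The untreated lines differed by 1.05-fold.

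CDKN3 was read by a probe whose ends lie 4252 bases apart in the genome (chr14:53948134-53952385), so that its 60 bases cross at least 1 splice junction. Its intensity was 3210 ± 321 in untreated and 3012 ± 301 in exposed LNCaP cells, and 8996 ± 900 in untreated and 7311 ± 731 in exposed PC3 cells. The second probe (chr14:53936384-53936443) read 2124 ± 213, 1643 ± 165, 6677 ± 668 and 5377 ± 538 units in that order. By both probes the PC3 arrays were above the LNCaP arrays and the ATO array was the lower in each line. Ratios (log2) were −0.19 and −0.47 in LNCaP and −0.25 and −0.26 in PC3, all short of 1.5-fold. Untreated PC3 was 2.37-fold and 2.65-fold above untreated LNCaP by the brighter and the second probe. Bright local backgrounds lay under the LNCaP ATO spot of CDKN2C and, in PC3 ATO, under the second CDKN2A and the brighter CDKN3 probe. With such spots left out CDKN2C had no LNCaP value, and CDKN3 in PC3 was read by its second probe, at −0.26. The part of these backgrounds in the values of the affected spots was not determined.

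**Figure D3:**
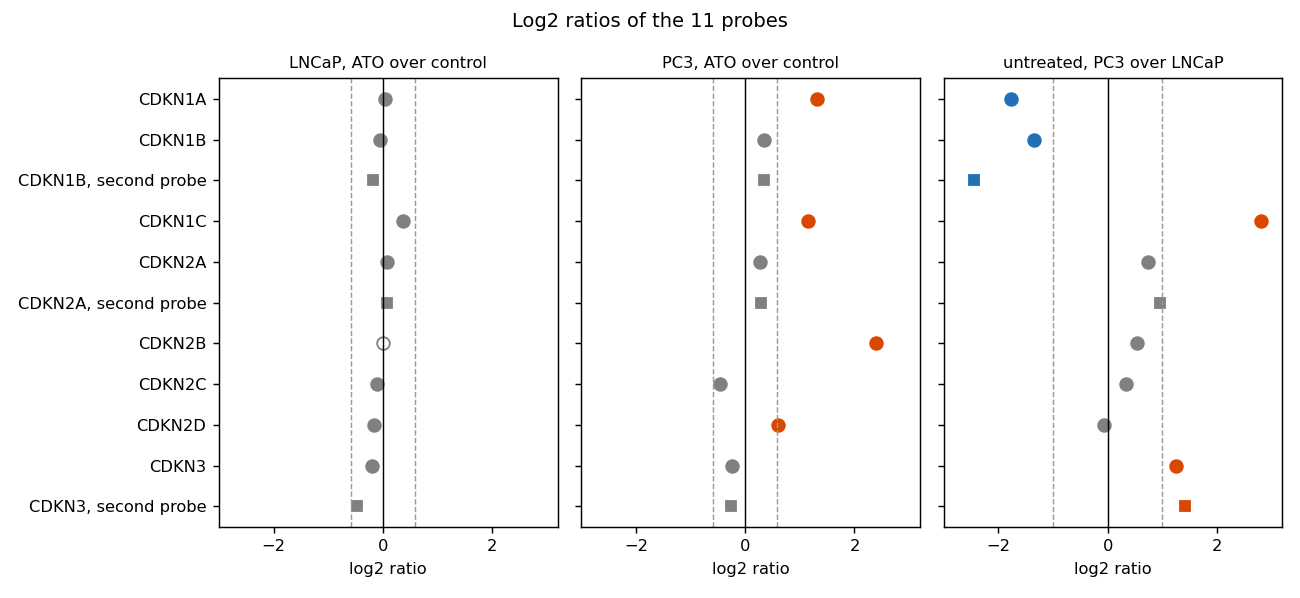
Log2 ratios of the 11 probes in LNCaP (ATO over control), in PC3 (ATO over control) and between the untreated lines (PC3 over LNCaP). Circles are brightest probes, squares second probes, and the open circle (CDKN2B in LNCaP) has no fold and is drawn at 0. Dashed lines mark 1.5-fold in the left and middle panels and 2-fold in the right one, and colour marks probes past them. In PC3 the probes of CDKN1A, CDKN1C, CDKN2B and CDKN2D lie to the right of the line, and in LNCaP all 11 lie between the lines.

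Between the untreated lines, 2 of the 8 inhibitors were at least 2-fold higher in PC3 (CDKN1C and CDKN3) and 2 at least 2-fold lower (CDKN1A and CDKN1B). Of all 15237 genes measured, 20.6% were that much higher and 19% that much lower, so 39.6% differed in either direction. The median log2 ratio was 0.44 for the inhibitors and −0.05 for all genes. The 3 Cip/Kip genes all differed, in both directions, and 0 of the 4 INK4 genes did. The split depended on the scale. On the 50th percentile the median of genes above background on both arrays moved from −0.12 to −0.56, and 1 inhibitor was higher and 2 were lower, as against 14.8% and 31.1% of all genes. On the spike-in probes it moved to 0.88, and 5 inhibitors were higher and 0 lower, as against 45.2% and 5.74% of all genes. They were CDKN1C, CDKN3 and the INK4 genes CDKN2A (log2 ratio 1.73), CDKN2B (1.53) and CDKN2C (1.33). CDKN1A (−0.78) and CDKN1B (−0.36) then fell short, so the split by family did not hold on that scale. CDKN1C was past 2-fold under all 10 processing alternatives, at log2 ratios of 2.36 to 3.80.

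For the inhibitors past 1.5-fold in PC3 with a fold in both lines, the responses can be set side by side. The PC3 ratio exceeded the LNCaP ratio by 1.28 for CDKN1A, 0.79 for CDKN1C and 0.76 for CDKN2D on the log2 scale. The sign of these gaps was fixed by the choice, since no inhibitor passed in LNCaP. The other inhibitors with a fold gave 0.40 for CDKN1B, 0.21 for CDKN2A, −0.35 for CDKN2C and −0.06 for CDKN3. The PC3 and LNCaP ratios on the spike-in scale were 1.09 and 0.97 for CDKN1C and 0.53 and 0.44 for CDKN2D. For CDKN1A the LNCaP ratio rose to 0.64 there, while its PC3 ratio stayed between 1.21 and 1.51 under all alternatives. With 1 array a group these differences between the lines could not be tested. A limma fit with the cell line as a block took the LNCaP and PC3 ratios as 2 replicates of the treatment, with 1 residual degree of freedom. It called 0 of the 8 inhibitors and 0 of 11902 genes at an adjusted p under 0.05. At an unadjusted p under 0.05, limma called 1 inhibitor and 532 genes (4.47%). The inhibitor was CDKN1C, higher in 2 of 2 lines with a mean log2 ratio of 0.76 ± 0.24 (SE), an unadjusted p of 0.0422 and a Benjamini-Hochberg adjusted p of 0.762. For CDKN1A the mean was 0.67 ± 0.36 (SE) with a limma adjusted p of 0.762, and for CDKN2B 0.83 ± 0.84 (SE) with 0.793. The fit used the measured LNCaP ATO value of CDKN2B, although that spot was not well above background.

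**Figure D4:**
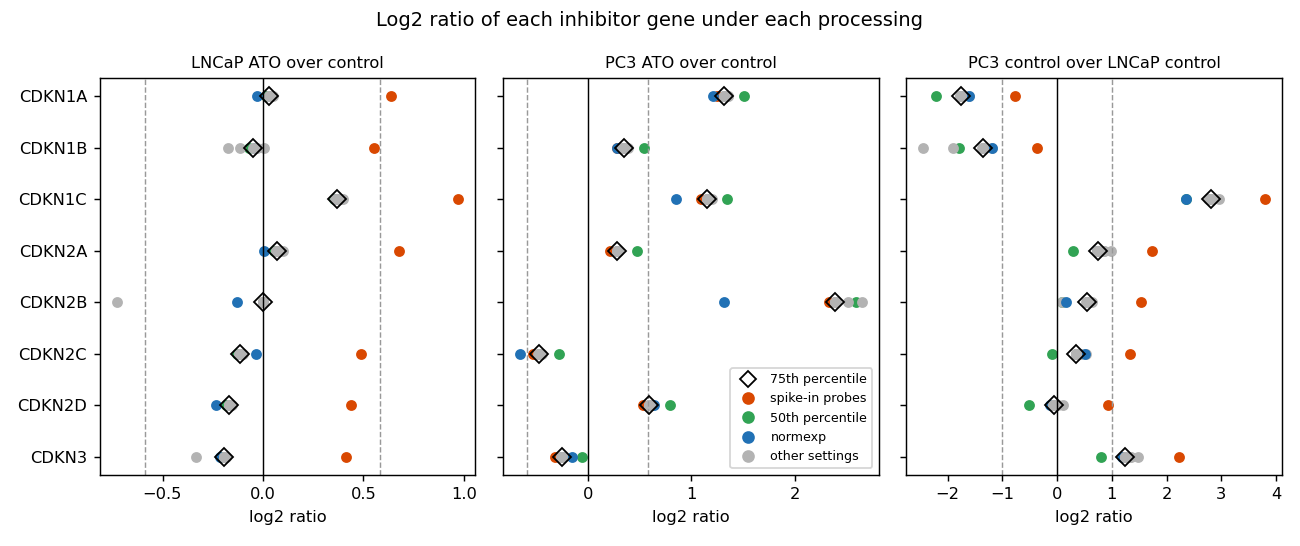
Log2 ratio of each inhibitor gene under the processing used here (open diamonds, 75th percentile) and under each alternative (points). Dashed lines mark 1.5-fold in the left and middle panels and 2-fold in the right one. The spike-in scale moves every gene to the right between the untreated lines and all but CDKN2B to the right in LNCaP, and the PC3 ratios of CDKN1A stay between 1.21 and 1.51.

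The sequences upstream of the start sites are shown for CDKN1A, CDKN2B and CDKN2D, since these inhibitors were past 1.5-fold together in PC3. They are the 250 bases before the start given by RefSeq (GRCh38.p14), 5′ to 3′ on the gene's strand, and capitals mark the GC box GGGCGG or its reverse complement, the letters bound by Sp1 and KLF factors. The motifs were chosen after the values were seen. Entries were found for 7 of the 8 inhibitors, all except CDKN1C.
CDKN1A, plus strand, chr6:36678464-36678713: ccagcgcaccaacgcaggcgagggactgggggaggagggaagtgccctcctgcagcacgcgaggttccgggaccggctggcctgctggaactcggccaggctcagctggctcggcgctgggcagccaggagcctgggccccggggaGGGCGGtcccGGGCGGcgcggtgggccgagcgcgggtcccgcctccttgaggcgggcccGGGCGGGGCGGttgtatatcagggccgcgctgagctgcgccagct
CDKN2B, minus strand, chr9:22009306-22009555: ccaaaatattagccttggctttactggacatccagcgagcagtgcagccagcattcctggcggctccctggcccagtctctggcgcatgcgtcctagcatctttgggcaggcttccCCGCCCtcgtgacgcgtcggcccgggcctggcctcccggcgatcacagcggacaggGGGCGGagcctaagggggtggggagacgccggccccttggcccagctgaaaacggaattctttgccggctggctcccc
CDKN2D, minus strand, chr19:10568980-10569229: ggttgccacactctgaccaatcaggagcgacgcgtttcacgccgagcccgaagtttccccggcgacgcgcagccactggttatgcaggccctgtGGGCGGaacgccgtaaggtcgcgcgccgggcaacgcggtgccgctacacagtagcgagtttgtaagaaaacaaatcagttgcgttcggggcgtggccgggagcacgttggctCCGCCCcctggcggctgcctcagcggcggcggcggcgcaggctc
The window of CDKN1A held 4 GC boxes, of which the last 2 overlap, and those of CDKN2B and CDKN2D held 2 each. Of the windows not shown, those of CDKN2C, the inhibitor with the lowest PC3 ratio, held 0, 5 and 1. Those of CDKN2A held 1 and 0, that of CDKN1B 1 and that of CDKN3 0. Any link between GC boxes and the PC3 ratios was not tested. Of the 10 entries of the 7 genes, 7 held at least 1, as against 42.6% of all 35116 windows of this length. CACCC occurred on either strand in 5 of the 10 entries and in 54.7% of all windows, and CCAAT in 4 of the 10 and in 32% of all. CDKN2B had 1 CACCC and CDKN1A none, while CDKN2D had 1 CCAAT. A match is a description of letters in this window only.

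Genes that act with the inhibitors were read from lists, whose counts in PC3 stand against 8.2% of all genes higher and 10.3% lower. The LNCaP counts stand against 2.77% of all genes higher and 1.99% lower. Of 18 cyclins, kinases, pocket proteins and their partners measured in PC3, 0 were at least 1.5-fold higher and 7 lower, with a median log2 ratio of −0.47. The kinases that the inhibitors bind were among them, with log2 ratios of −0.67 for CDK2, −0.76 for CDK4 and −0.91 for CDK6. The E-type cyclins CCNE1 (−0.91) and CCNE2 (−1.36) and the phosphatase CDC25A (−1.36) were lower too, while cyclin D1 (CCND1, −0.58) fell just short of the threshold. In LNCaP 0 of 17 passed in either direction, and CDK6 was not well above background on either array. Of 6 replication genes that act with the clamp bound by p21, 3 were lower in PC3 (10.3% of all genes), namely PCNA itself (−0.96), FEN1 (−0.89) and POLD1 (−0.69), and in LNCaP 0 of 6 were.

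The ubiquitin ligases that degrade p21 and p27 were represented by 9 parts. In PC3 2 were lower, DTL (log2 ratio −1.58), which targets p21, and SKP2 (−1.24), which targets p27 and p21, and 0 were higher, as against 10.3% and 8.2% of all genes. In LNCaP 0 of 9 passed (4.75% of all genes), with SKP2 at −0.54. These are levels of mRNA, and the stability of the inhibitor proteins was not measured.

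Among 18 known regulators of the inhibitor genes measured in PC3, 4 were at least 1.5-fold higher and 4 lower, as against 8.2% and 10.3% of all genes. The higher ones included KLF2 (log2 ratio 4.68), KLF6 (1.64) and FOXO4 (1.03). The lower ones included MYC (−0.93), E2F1 (−0.86) and EZH2 (−0.70). The remaining ones were KLF4, higher at 0.65, and ETS2, lower at −0.59. FOXO1 (0.14) and FOXO3 (0.34), of the same family as FOXO4, were short of 1.5-fold in PC3. Whether any of these regulators acted on the inhibitor genes was not tested. In LNCaP only FOXO4 of 18 passed (4.75% of all genes), at 0.86, with KLF6 just short of the threshold at 0.58 and KLF2 at 0.22.

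**Figure D5:**
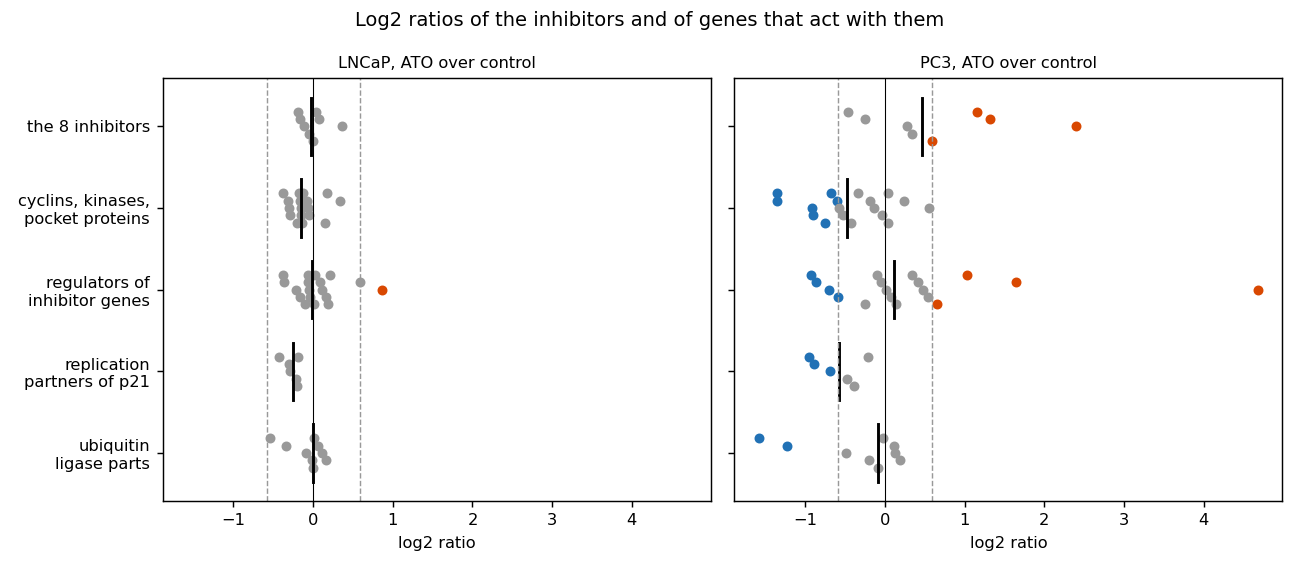
Log2 ratios (ATO over control) of the 8 inhibitors and of the genes of the lists in LNCaP and PC3. Points are genes, black bars are medians, dashed lines mark 1.5-fold, and colour marks genes past it. In PC3 the median is 0.47 for the inhibitors and −0.47 for cyclins, kinases and pocket proteins.

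Neighbours of the CDKN2A and CDKN2B pair on chromosome 9 were read as well. MTAP, which lies beside CDKN2A, was above background on all 4 arrays with log2 ratios of −0.09 in LNCaP and −0.38 in PC3. The antisense RNA CDKN2BAS was not well above background on any of the 4 arrays, at 7.05 to 14.6 units, and C9orf53 was likewise not, at 7.78 to 13.6 units on 3 arrays and 59.1 units on the PC3 ATO array. DMRTA1 had a log2 ratio of 0.30 in PC3 and was not well above background on either LNCaP array. Between the untreated lines DMRTA1 was at least 5.91-fold higher in PC3, and MTAP was 1.27-fold lower. Of the 2 neighbours measured in PC3, 0 passed 1.5-fold after ATO, as against 18.5% of all genes.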

How the data were processed

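RNA from 4 cultures was hybridised to 1-colour Agilent human arrays. The authors deposited scanner files whose processed signal is an intensity, background-corrected by Agilent Feature Extraction 9.5.3.1. They also deposited a table of values that are a ratio of this signal to each array's 75th percentile, with a floor of 0.03; from 99.4% to 100.0% of its values above 1 lay within 2% of the ratio computed from the scanner files.

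Spots with outlier flags were dropped, log2 intensities of a probe's remaining spots were averaged, and values were centred on the array's 75th percentile. A gene was taken by its brightest probe. Being well above background required over 50% of a probe's spots, and with a single such array the ratio was a bound against the lowest such signal. Ratios were called at 1.5-fold within a line and 2-fold between lines. Spots over 3 median absolute deviations above the array's median local background were called bright. limma 3.58.1 (R 4.3.3) fitted both lines with Benjamini-Hochberg adjustment, and was tested on simulated data. The number of arrays limits the precision, and no batch could be separated from the groups.

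The members and the lists were chosen with earlier results of these data known. All 8 members are named; of each list, up to 6 genes past 1.5-fold by size of log2 ratio, and CDK2, CDK4, CDK6, CCND1, CCNE2, SKP2, PCNA, KLF2 and MTAP whatever their values; some items of this rule and of the lists are not reported here. CDKN2BAS, C9orf53, DMRTA1, FOXO1, FOXO3, KLF4 and ETS2 were added after their values were seen. The alternatives were the 50th percentile, spike-in probes, quantile and cyclic loess scaling, normexp (offset 50), outlier spots kept, the median over probes, no filter, the deposited table, bright backgrounds left out, other thresholds and, for limma, an intensity trend.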

Additional observations from a re-analysis of the deposited data

Results flagged for a closer look

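The sign of the response to ATO differed between the lines for CDKN1B and CDKN2D. CDKN1B had a log2 ratio of −0.0512 in LNCaP and 0.3451 in PC3, and its second probe gave −0.17 and 0.35. CDKN2D had a log2 ratio of −0.1668 in LNCaP and 0.5948 in PC3. In LNCaP the CDKN2D readings overlapped within their scanner errors, and the CDKN1B spots of control and ATO overlapped. With 1 array a group, neither difference was tested. The CDKN1B sign in LNCaP turned when outlier spots were kept, to 0.00, and on the spike-in scale both genes were above 0 in LNCaP, at 0.55 and 0.44.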

How the results depend on the processing

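The PC3 count of inhibitors past 1.5-fold was 4 (18.5% of all genes). Among the 12 alternatives, those that kept this threshold gave 3 on the spike-in scale (18.8% of all genes), 5 after normexp (12.4%) and otherwise 4. The PC3 count was 3 at a 2-fold threshold (6.09% of all genes) and 6 at a lower fold threshold (40.8%). The LNCaP count was 0, and became 3 on the spike-in scale (53.9% of all genes), 1 with no filter on dim probes (CDKN2B, at −0.73, and 42.9% of all genes) and 1 at a lower fold threshold (CDKN1C, and 13.1% of all genes). The count between the untreated lines was 4, from 3 to 5 under the other scalings, and 1 at a 4-fold threshold (16.1% of all genes). CDKN2C between the untreated lines was −0.10 on the 50th percentile, from 0.34. This scaling shifts all genes of an array by 1 constant. The median of genes above background on both arrays moved with it, from −0.12 to −0.56. The limma count of inhibitors was 0 under each of its 10 alternatives. The lowest limma adjusted p among them was from 0.646 to 0.955, and the unadjusted count from 0 to 3. With bright backgrounds left out limma tested 6 inhibitors, without CDKN1C and CDKN2C. The unadjusted call of CDKN1C could therefore not be repeated there. Over all genes limma called 5 on the 50th percentile and 52 on the spike-in scale. Of the single log2 ratios of the inhibitors, 216 kept their sign and side of the threshold, 8 gained the threshold, 4 lost it and 10 changed sign while short of it. The 216 include CDKN2B in LNCaP, which stayed a bound of 0 under most settings. No inhibitor past its threshold changed sign. Control and ATO arrays were paired only by cell line, as the block in the limma fit. Pairing of replicates within a line was not possible, because each group holds 1 array with no replicate number. For the same reason no replicate could be left out. Signal over background limits CDKN2B, which was near background on 3 of the 4 arrays, and the second CDKN1B probe on the PC3 control array.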

Other observations

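The genes closest in pattern to 7 of the inhibitors, all except CDKN2B, were sought among 11016 genes well above background on all 4 arrays, by the root mean square difference of the 4 centred log2 values. CCNG2 (0.10), XBP1 (0.14) and CRELD1 (0.14) lay nearest to CDKN1A, and CAPS (0.09), TUBB3 (0.13) and S100P (0.13) nearest to CDKN1C. CKAP4, DENND2C and TAZ, as the array names them, lay nearest to CDKN2D (0.03 each). FBXO6, WDR60 and BZW1 were nearest to CDKN2A, HIST1H2AD, PYROXD2 and MED16 to CDKN1B, ZNF92, FAM136B and LOC100133263 to CDKN2C, and SLC16A1, QSER1 and ERGIC2 to CDKN3. The likeness rests on 4 arrays, which share their scaling.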
